A study of Homo sapiens with 8 samples.

Results

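The genes described here are the receptor chains, kinase, STAT and interferon regulatory factors (IRFs) through which cells answer type I interferon: IFNAR1, IFNAR2, TYK2, STAT2, IRF1, IRF2, IRF3, IRF7 and IRF9. They were taken by name, as all probes to which the platform annotation gives 1 of these 9 gene symbols. The rule found 13 of 48798 probes, for 8 of the 9 genes; no probe was named for STAT2, which is not analysed further here. RNA came from PC3, an established cell line derived from a human prostate carcinoma, 48 hours after transfection with a non-specific control siRNA or with siRNA directed at TRPM2-AS, the antisense RNA of the ion channel gene TRPM2. The medium contained glutamine and foetal bovine serum, all groups are of this 1 line, and the labels give no genotype change or further agent in either group. The labels list 8 samples, 4 per siRNA, without stating that the replicates are separate cultures; the p-values below therefore rest on a spread that may be technical. Total RNA labelled with biotin was hybridised to Illumina bead arrays in 1 colour, on which a probe's brightness follows the abundance of its transcript.

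Type I interferons bind a receptor made of the chains IFNAR1 and IFNAR2, whose kinase partners TYK2 and JAK1 then phosphorylate STAT proteins. STAT2 and IRF9 are parts of the trimeric factor ISGF3, which binds the interferon-stimulated response element (ISRE) of antiviral genes. IRF3 and IRF7 act before interferon is made: after RNA or DNA is sensed, the kinases TBK1 and IKBKE phosphorylate them and they switch on interferon genes. IRF1 is an activator induced by interferons and inflammatory signals, and IRF2 is known as its antagonist at shared sites.

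The promoter windows of IRF9, whose probe had the smallest p of these genes, and of IRF1, whose probe was the most uneven among TRPM2-AS siRNA arrays, are shown for comparison. They are the 250 bases before each gene's start in RefSeq, build GRCh38.p14, on the gene's own strand, at chr14:24161015-24161264 (plus strand) for IRF9 and chr5:132490774-132491023 (minus strand) for IRF1. Capitals mark motif matches found on either strand.
IRF9: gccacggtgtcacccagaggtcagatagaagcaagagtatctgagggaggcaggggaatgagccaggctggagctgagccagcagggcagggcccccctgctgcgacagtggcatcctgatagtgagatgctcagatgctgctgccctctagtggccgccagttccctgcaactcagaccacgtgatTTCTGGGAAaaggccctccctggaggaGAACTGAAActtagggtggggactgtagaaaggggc
IRF1: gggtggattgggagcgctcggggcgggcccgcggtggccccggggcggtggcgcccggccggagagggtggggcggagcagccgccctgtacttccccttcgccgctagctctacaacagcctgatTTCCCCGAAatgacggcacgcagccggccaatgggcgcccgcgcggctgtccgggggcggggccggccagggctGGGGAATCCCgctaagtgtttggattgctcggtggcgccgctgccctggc

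The promoter table matched 5 of the 9 genes, the others being TYK2, STAT2 and IFNAR1. The core of the interferon-gamma-activated site that STAT dimers bind, TTCNNNGAA, occurred once in the IRF9 window, beginning 63 bases before the start, and once in the IRF1 window, beginning 124 bases before it. It reads the same on both strands in its fixed letters and was found in 6.57% of the 35116 windows in the table. The ISRE core (GAAA, any 2 bases, GAAA) was in neither window and in 3.02% of all windows. A form shorter by 1 base, GAANNGAAA, searched for after the IRF9 window had been read, matched IRF9 beginning 36 bases before the start and was found in 6.56% of all windows. The forms differ in spacing, and neither contains the other. The NF-kB motif, searched by name on both strands, matched IRF1 beginning 50 bases before the start and was found in 9.96% of all windows. None of these marked matches overlap, and no match to any of the 4 motifs was found in the windows of TYK2, STAT2 or IFNAR1. A match describes letters only and says nothing of binding in these cells.

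Of the 8 columns of raw signal, 1 named as a TRPM2-AS siRNA array followed no sample's processed values and was left out, so 4 control arrays were set against 3 TRPM2-AS siRNA arrays (replicates 1, 2 and 4). The arrays detected 13163 to 14318 probes each. Values below are normalised log2 intensities, and a probe was tested where its detection p-value was under 0.01 on at least 3 of the 7 arrays. Of 14400 tested probes 8010 (55.6%) passed the test (limma, Benjamini-Hochberg adjusted p under 0.05), 27.4% being higher and 28.2% lower in treated arrays, and the median log2 fold change was -0.00. Of the 13 probes described here 10 were tested, 9 of them detected on all 7 arrays, and 3 were detected on 0 arrays. With 4 higher and 1 lower, 5 of the 10 (50%) changed, a share near that of all probes. Treated and control arrays did not overlap in 6 of the 10 probes, beside 56.4% of all tested probes. Which genes changed, and in which direction, is given below gene by gene. The depletion itself was not analysed here, since no probe carried the name of TRPM2-AS or of TRPM2.

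**Figure D1:**
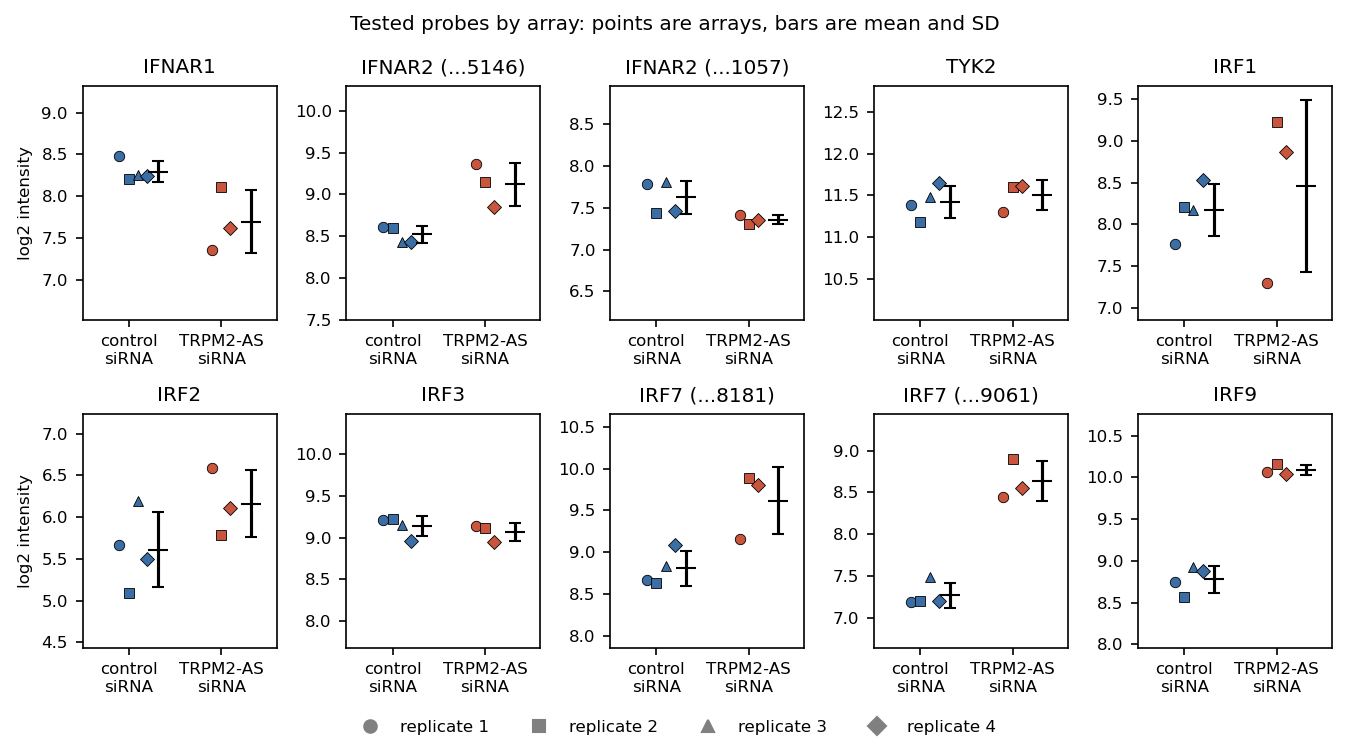
Log2 intensity (vertical axis, each panel spanning the same height) of the 10 tested probes in 4 control siRNA arrays (blue) and 3 TRPM2-AS siRNA arrays (red); the symbol gives the replicate, the bar the mean and SD, and the dots in a title stand for the start of a probe's name. The groups are apart in IRF9, both IRF7 probes, IFNAR1 and both IFNAR2 probes, and TRPM2-AS siRNA replicate 1 lies below all other arrays for IRF1.

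The receptor chains moved in opposite directions in the probes that passed. IFNAR1, the chain that carries TYK2, was measured by 1 probe (ILMN_1752923) at 8.48, 8.20, 8.25 and 8.24 in control replicates 1 to 4 and at 7.36, 8.11 and 7.62 in TRPM2-AS siRNA replicates 1, 2 and 4. All 3 TRPM2-AS siRNA arrays lay below all 4 control arrays, replicate 2 only just. IFNAR1 fell 1.51-fold, from 8.29 ± 0.13 (SD, n = 4) to 7.70 ± 0.38 (SD, n = 3), a log2 fold change of -0.60 ± 0.17 (SE, limma adjusted p = 0.0118). In RNA from whole cultures, fewer cells with a transcript and less of it per cell cannot be told apart, here and below.

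IFNAR2, the high-affinity binding chain, which carries JAK1, has 3 probes, which the annotation pairs with different transcripts. The probe ILMN_1765146, annotated to NM_207584, stood at 8.62, 8.59, 8.44 and 8.43 in control replicates 1 to 4 and at 9.36, 9.15 and 8.85 in TRPM2-AS siRNA replicates 1, 2 and 4, with every treated array above every control. It rose 1.52-fold (log2 fold change 0.60 ± 0.14 SE, limma adjusted p = 0.00381). The probe ILMN_1791057, annotated to NM_207585, gave 7.78, 7.44, 7.81 and 7.47 in controls and 7.41, 7.31 and 7.36 in TRPM2-AS siRNA arrays. These values were lower in each treated array than in each control, but by amounts near the spread of the controls, and the probe did not pass (log2 fold change -0.27, 95% interval -0.56 to 0.03, limma adjusted p = 0.110). The third probe (ILMN_2347999) carries the same annotation as the first and was detected on 0 arrays.

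Within each array the log2 difference of the brighter IFNAR2 probe over the other was 0.90 ± 0.22 (SD, n = 4) in control and 1.76 ± 0.24 (SD, n = 3) in TRPM2-AS siRNA arrays. The 2 probes thus changed unequally, by 0.87 on the log2 scale, and the arrays of the groups did not overlap (exact permutation test, two-sided, p = 0.0286, the smallest that 35 splits allow; p = 0.0286 after adjustment over the 2 genes with 2 tested probes). In the authors' processed values of 8 samples the same difference was 0.64 (exact permutation p = 0.0286, adjusted p = 0.0571). Which IFNAR2 transcripts each probe binds was not tested. Between the chains, the first IFNAR2 probe over IFNAR1 went from 0.23 ± 0.12 (SD, n = 4) to 1.42 ± 0.51 (SD, n = 3) in log2 difference. No p-value is given for this pair, which was chosen after its values were seen. The comparisons of the 2 IFNAR2 probes and, below, of the 2 IRF7 probes were also added after seeing the data. Their p-values are therefore descriptive too.

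**Figure D2:**
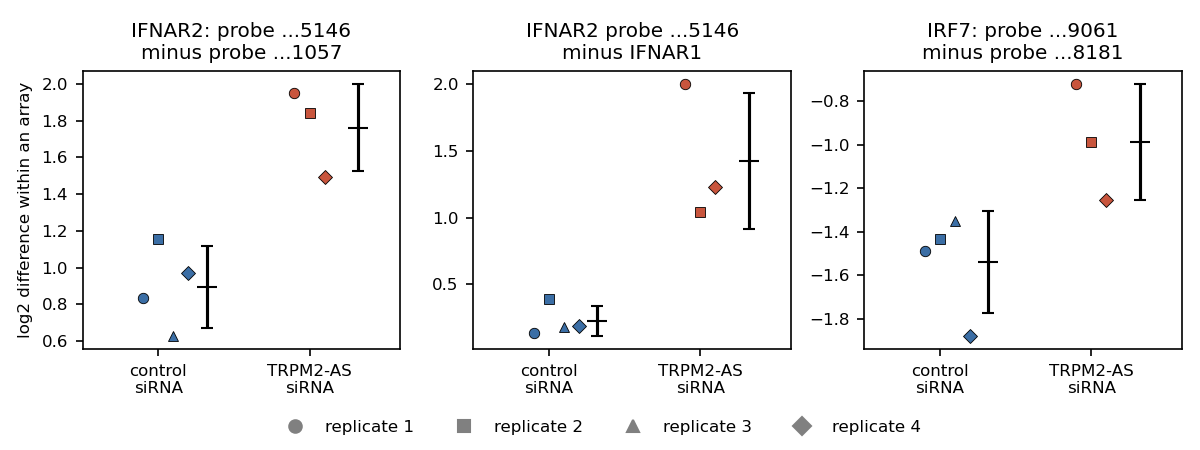
Log2 difference of 2 probes within an array (vertical axis, scaled per panel) in 4 control siRNA (blue) and 3 TRPM2-AS siRNA arrays (red), with mean and SD. The IFNAR2 probes differ by 0.90 on average in control and 1.76 in TRPM2-AS siRNA arrays, and in each panel the groups do not overlap.

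IFNAR2, IL10RB, IFNAR1 and IFNGR2 lie in this order on chromosome 21, the chromosome that also holds TRPM2. Of the neighbours, IL10RB, a shared chain of the interleukin 10 and lambda interferon receptors, had a log2 fold change of 0.00 ± 0.15 (SE; limma 95% interval -0.32 to 0.32) in its brightest probe. IFNGR2, the signalling chain of the interferon gamma receptor, had 0.06 ± 0.12 (SE, limma adjusted p = 0.709). Neither neighbour passed. RefSeq also annotates a read-through gene joining IFNAR2 to IL10RB, and whether any of these probes binds it was not tested.

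TYK2, the kinase bound to IFNAR1, did not pass. Its probe (ILMN_1676955) gave 11.39, 11.18, 11.48 and 11.64 in control replicates 1 to 4 and 11.30, 11.60 and 11.62 in TRPM2-AS siRNA replicates 1, 2 and 4. The groups overlapped, with a log2 fold change of 0.09 and a 95% interval of -0.23 to 0.40 (limma adjusted p = 0.630).

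IRF9, the DNA-binding subunit of ISGF3, rose and was the most even of the changes within the treated group. Its probe (ILMN_1745471) stood at 8.75, 8.57, 8.92 and 8.88 in control replicates 1 to 4 and at 10.07, 10.15 and 10.04 in TRPM2-AS siRNA replicates 1, 2 and 4. The lowest treated array lay more than 1 log2 unit above the highest control. The rise was 2.47-fold, from 8.78 ± 0.16 (SD, n = 4) to 10.09 ± 0.06 (SD, n = 3), a log2 fold change of 1.31 ± 0.12 (SE, limma adjusted p = 7.88e-06).

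IRF7, which drives the amplification of interferon production and is itself an interferon-stimulated gene, rose in both of its detected probes. The probe ILMN_2349061 read 7.18, 7.19, 7.49 and 7.20 in control replicates 1 to 4 and 8.44, 8.90 and 8.55 in TRPM2-AS siRNA replicates 1, 2 and 4. It rose 2.57-fold (log2 fold change 1.36 ± 0.14 SE, limma adjusted p = 1.71e-05). The probe ILMN_1798181, annotated to the same transcript NM_004029, read 8.67, 8.63, 8.84 and 9.08 in controls and 9.16, 9.89 and 9.80 in treated arrays.

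For that second IRF7 probe the groups were apart by little, since treated replicate 1 lay just above control replicate 4, and the rise was 1.76-fold (log2 fold change 0.81 ± 0.19 SE, limma adjusted p = 0.00356). The first probe rose by 0.55 more than the second on the log2 scale within arrays (exact permutation test, two-sided, p = 0.0286, the smallest that 35 splits allow; p = 0.0286 after adjustment over the 2 genes). In the authors' processed values of 8 samples, which add TRPM2-AS siRNA replicate 3, this difference was 0.12 (exact permutation p = 0.571, adjusted p = 0.571). The size of the IRF7 rise, not its direction, thus depended on the probe and on the source of the values. Those sources differ in both processing and samples, and which of these mattered was not tested. The remaining IRF7 probe (ILMN_1674646), annotated to NM_004031, was detected on 0 arrays.

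IRF3, the factor present before any signal and activated by phosphorylation, did not pass. Its probe (ILMN_1765649) gave 9.21, 9.22, 9.15 and 8.96 in control replicates 1 to 4 and 9.14, 9.11 and 8.94 in TRPM2-AS siRNA replicates 1, 2 and 4. The values overlapped, and the 95% interval of the log2 fold change of -0.07 ran from -0.34 to 0.19 (limma adjusted p = 0.628).

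IRF1 was split among the treated arrays. Its probe (ILMN_1708375) read 7.77, 8.21, 8.17 and 8.54 in control replicates 1 to 4, and 7.30, 9.22 and 8.87 in TRPM2-AS siRNA replicates 1, 2 and 4. Replicates 2 and 4 lay above every control and replicate 1 below every control, and the SD was 1.03 in treated against 0.31 in control arrays. The fit gave a log2 fold change of 0.29 (95% interval -0.54 to 1.12, limma adjusted p = 0.537). Without TRPM2-AS siRNA replicate 1 it was 0.87 (limma adjusted p = 0.00469), without replicate 2 it was -0.09 and without replicate 4 it was 0.09. Without control replicate 1 it was 0.16. The call was also gained with array weights (0.65, limma adjusted p = 0.0481).

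IRF2 sat near the detection limit. Of its probes, ILMN_1765547 was detected on 1 control and 2 TRPM2-AS siRNA arrays and ILMN_2090607 on 0 arrays. The first read 5.66, 5.09, 6.19 and 5.50 in control replicates 1 to 4 and 6.59, 5.78 and 6.12 in treated replicates 1, 2 and 4. The groups overlapped and the probe did not pass (log2 fold change 0.55, 95% interval -0.00 to 1.10, limma adjusted p = 0.0842). The call was gained without control replicate 3 (log2 fold change 0.75, limma adjusted p = 0.0183) or without TRPM2-AS siRNA replicate 2 (0.75, limma adjusted p = 0.0399), and with array weights (0.57, limma adjusted p = 0.0363).

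**Figure D3:**
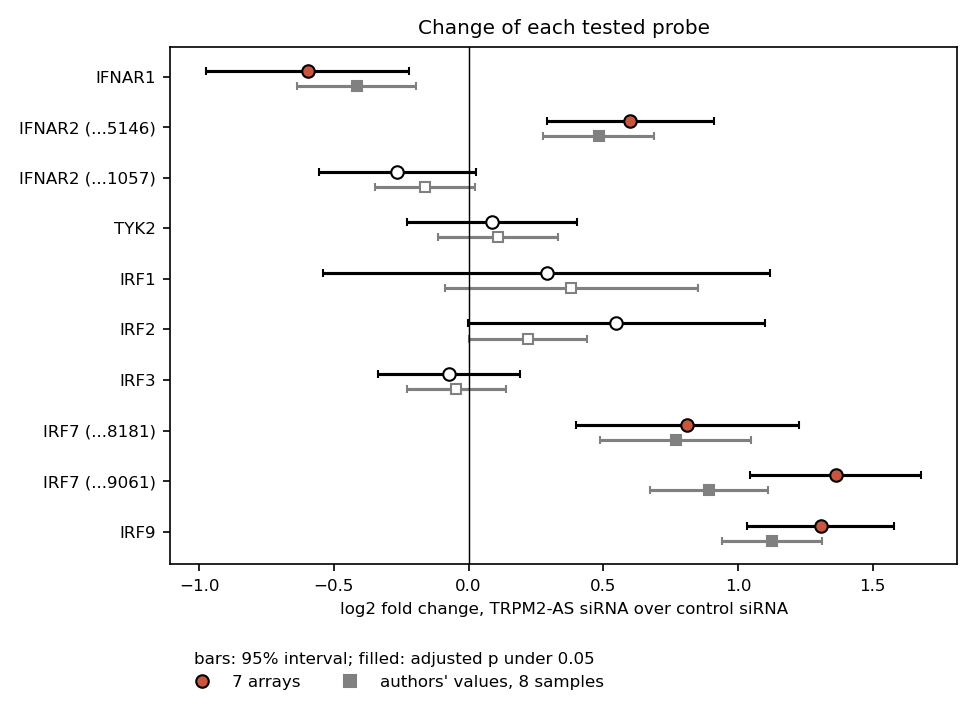
Log2 fold change of each tested probe (horizontal axis) in the 7 arrays (circles) and in the authors' processed values of 8 samples (squares), with 95% intervals; filled symbols have an adjusted p under 0.05. Filled circles mark IFNAR1 at -0.60, IFNAR2 at 0.60, IRF7 at 0.81 and 1.36 and IRF9 at 1.31, and the same 5 probes are filled among the squares.

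The authors' processed values hold all 8 samples, including TRPM2-AS siRNA replicate 3, which had no traced raw column. They are not independent of the arrays above, which supply 7 of the 8 samples. On the log2 scale IRF9 stood at 9.09, 8.95, 9.23 and 9.20 in the 4 controls and at 10.22, 10.31, 10.24 and 10.20 in TRPM2-AS siRNA replicates 1 to 4. Replicate 3, at 10.24, thus lay among its group, and IRF9 had a log2 fold change of 1.13 ± 0.09 (SE, limma adjusted p = 7.00e-09). For IRF7, replicate 3 read 8.71 in ILMN_2349061 and 10.13 in ILMN_1798181, above the highest controls of 8.17 and 9.37. For the receptor chains it read 8.33 in IFNAR1, below the lowest control of 8.66, and 9.36 in the IFNAR2 probe ILMN_1765146, above the highest control of 8.98. For IRF1 it read 9.40, beside 8.05, 9.48 and 9.19 in replicates 1, 2 and 4 and 8.36 to 8.92 in controls, so 3 of 4 treated samples lay above all controls and replicate 1 below them (log2 fold change 0.38 ± 0.22 SE, limma adjusted p = 0.150). All 5 probes that passed in the 7 arrays passed here in the same direction, where 60.4% of the same 14400 probes passed.

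The other genes of the pathway were read from lists, each gene by its brightest tested probe, against 56.3% of 9629 such genes passing, 28% higher and 28.3% lower, with a median log2 fold change of 0.00. The lists were chosen with earlier results of these data known. Of 13 other receptor chains, JAKs and STATs, 12 had a probe and 6 were tested, with 2 higher, 1 lower and a median log2 fold change of 0.03. IFNGR1, the ligand-binding chain of the interferon gamma receptor, rose 2.46-fold (8.58 ± 0.15 to 9.88 ± 0.13, SD, n = 4 and 3; limma adjusted p = 1.07e-05). IFNLR1, the specific chain of the lambda interferon receptor, fell 1.67-fold (limma adjusted p = 0.000505). JAK1 rose 1.27-fold (limma adjusted p = 0.0349), a call lost under 10 of 21 alternatives, among them each of control replicates 2, 3 and 4 and TRPM2-AS siRNA replicates 1 and 4 left out. JAK2 was at -0.34 (SE 0.36, limma adjusted p = 0.456) and at -0.86 without TRPM2-AS siRNA replicate 1 (limma adjusted p = 0.00921). STAT3, STAT4, STAT5A, STAT5B and JAK3 were detected on 0 arrays; PC3 is known to lack STAT3.

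Negative regulators were mostly lower. Of 13 listed, 10 were tested, and USP18 had no named probe. Of the 10 tested, 7 fell, 0 rose and 3 did not pass, with a median log2 fold change of -0.69. SOCS2, a suppressor of cytokine signalling, fell 2.13-fold (limma adjusted p = 1.01e-05). Among PIAS genes, which encode inhibitors of activated STATs, PIAS2 fell 2.06-fold, PIAS3 1.86-fold and PIAS4 1.83-fold (limma adjusted p = 3.16e-05, 0.000624 and 0.000497). PIAS1, at a log2 fold change of -0.35, did not pass (limma adjusted p = 0.0527). SOCS1 was detected on 0 arrays. With the untraced column added, SOCS2 and PIAS3 did not pass (limma adjusted p = 0.113 and 0.275), while PIAS2 and PIAS4 kept their calls. Among 3 tested genes named as IRF2-binding proteins, IRF2BP2 fell 1.55-fold and IRF2BP1 1.47-fold (limma adjusted p = 0.0059 and 0.00824), and IRF2BPL was at -0.02 (limma adjusted p = 0.956). The brightest IRF2BP2 probe fell, while its other tested probe, at 0.19, did not pass (limma adjusted p = 0.347). IRF4, IRF5 and IRF8 were detected on 0 arrays.

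Kinases, sensors and adaptors upstream of IRF3 and IRF7 were mostly higher. Of 17 listed, 15 were tested, and DHX58 and TLR3 were detected on 0 arrays. Of the 15, 10 rose, 1 fell and 4 did not pass, with a median log2 fold change of 0.63. The RNA sensor IFIH1, detected in all treated arrays and in 0 controls, counts among the 10 but met the filter through treated arrays alone. It was at least 2.68-fold higher (limma adjusted p = 1.84e-06). This bound sets the arrays of the undetected group at their dimmest detected probe, as do the other bounds below. The adjusted p-values printed beside bounds belong to the fitted log2 fold change. The bounds themselves were not tested. The RNA sensor RIGI rose 2.33-fold, the adaptor STING1 2.28-fold and the TBK1-binding protein TANK 1.89-fold (limma adjusted p = 6.17e-05, 7.71e-06 and 5.25e-05). The gene that fell was AZI2, an adaptor of TBK1, at a log2 fold change of -1.36 (limma adjusted p = 6.40e-05), named after its value was seen. Of interferon ligands themselves, 18 of 21 were detected on 0 arrays, IFNB1, IFNG and the lambda genes IFNL1, IFNL2 and IFNL3 among them. Only IFNA8 and IFNE were tested. IFNA8 was at -0.18 (limma adjusted p = 0.311) in the probe ILMN_2110561, which was detected on all 7 arrays. Its other probe, ILMN_1678574, carries the same annotation and was detected on 0, so whether IFNA8 is expressed here is unsettled. IFNE fell 1.61-fold (limma adjusted p = 0.0442), a call lost in 9 alternatives. Its probe was seen on 1 treated and 3 control arrays.

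Targets of these factors were given by 2 lists. All 39 listed interferon-stimulated genes had a probe and 28 were tested. BST2, CMPK2, MX2, RSAD2, SAMD9L, TRIM22 and XAF1 were detected on 0 arrays. Of the 28, 22 rose, 3 fell and 3 did not pass. Their median log2 fold change was 1.30, or 1.08 with genes undetected in 1 group set at their bounds. The 22 include genes, OASL and IFI27 among them, that met the detection filter through the treated arrays alone. OASL was at least 9.45-fold higher, and IFIT2, IFIT1 and IFIT3 rose 12.1-fold, 11.4-fold and 7.38-fold (limma adjusted p = 8.40e-09, 2.36e-07, 4.19e-08 and 6.60e-08). Also seen on all 3 TRPM2-AS siRNA arrays and 0 controls were OAS2, at least 1.86-fold and 1.20-fold higher in its probes, IFI27, at least 1.33-fold, and a probe of SP100, at least 1.99-fold; second probes of OASL and IFIT1 were at least 1.68-fold and 1.02-fold higher. The genes that fell, named after their values were seen, were the RNA editing enzyme ADAR (log2 fold change -1.24), PARP14 (-0.83) and DTX3L, which was undetected in the treated arrays and at least 1.24-fold lower (limma adjusted p = 1.44e-05, 0.000715 and 0.00141). Of 8 tested targets of IRF1 or interferon gamma, 3 rose, 2 fell and 3 did not pass (median log2 fold change 0.13). Among the 3 that rose, CD274 met the detection filter through the treated arrays alone. The checkpoint ligand CD274 was at least 1.16-fold higher, from background, WARS1 rose 1.55-fold, the proteasome subunit PSMB8 rose 1.29-fold and PSMB10 fell 1.30-fold (limma adjusted p = 0.000159, 0.00587, 0.0171 and 0.0169). Both proteasome calls were lost without TRPM2-AS siRNA replicate 4 (limma adjusted p = 0.0523 and 0.0571 for PSMB10 and PSMB8). The other gene that fell, the guanylate-binding GBP2 (-0.40, limma adjusted p = 0.0373), was named after its value was seen. The GBP2 call was lost in 17 of 21 alternatives, among them each control array or TRPM2-AS siRNA replicate 2 or 4 left out (limma adjusted p from 0.0506 to 0.154), and with the untraced column added its log2 fold change was 0.17 (limma adjusted p = 0.818). CXCL9, CXCL10, CXCL11 and CIITA were among 8 of the 19 listed targets of IRF1 or interferon gamma that were detected on 0 arrays. GBP1 and IDO1 were detected on too few arrays to be tested and are named after their values were seen. IDO1 (means 5.19 and 6.09 in control and treated arrays) and the GBP1 probe ILMN_2148785 (4.88 and 5.87) were seen on 2 TRPM2-AS siRNA arrays and 0 controls. The other GBP1 probe (4.84 and 5.78) was seen on 1 treated array and 0 controls.

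**Figure D4:**
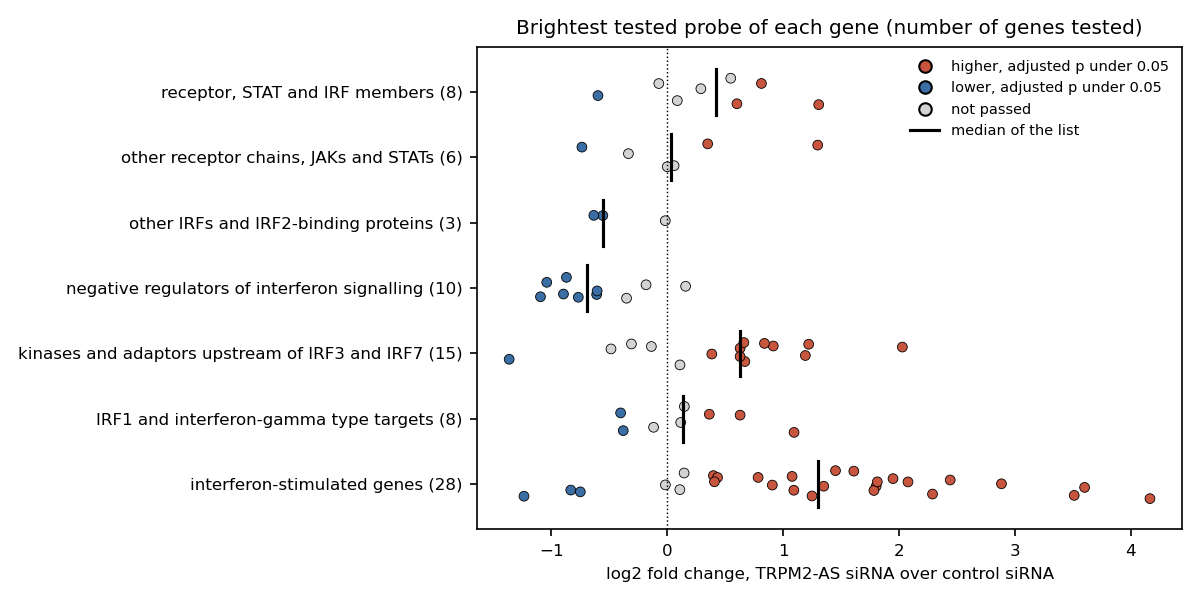
Log2 fold change (horizontal axis) of the brightest tested probe of each gene in 7 lists, with the number of genes tested in brackets; red and blue mark adjusted p under 0.05 higher and lower, grey not passed, and the black line is the list's median. Medians run from -0.69 for negative regulators to 1.30 for interferon-stimulated genes, and genes undetected in 1 group are drawn at their fitted value.

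The probes most like IRF9 over the 7 arrays, by Pearson correlation of log2 intensity among 12412 tested probes of other named genes, were those of the kinase ULK1, TMEM140, IFI44, the signalling inhibitor SPRY2 and KISS1, with r from 0.998 to 0.999. The 7 arrays fall into 2 groups and 1033 candidate probes had r over 0.95, so these values are given as a description only.

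PC3 identity was checked against marker genes. The epithelial genes EPCAM, KRT8, KRT18 and KRT19 were detected on all 7 arrays. Among these, EPCAM fell 2.21-fold, KRT18 1.43-fold and KRT19 1.35-fold (limma adjusted p = 1.13e-05, 0.0298 and 0.0104). CDH1 was detected on the 3 TRPM2-AS siRNA arrays alone, near background (means 5.35 in control and 6.02 in treated arrays). With the controls set at their dimmest detected probe, as above, CDH1 was not higher in the treated arrays. The KRT18 call was lost without control replicate 2 or 3 or TRPM2-AS siRNA replicate 1 (limma adjusted p from 0.0743 to 0.115). Luminal prostate genes KLK2, KLK3, FOLH1 and ACP3 were detected on 0 arrays, as were the blood cell genes PTPRC, CD3E and LYZ and the vessel and fibroblast genes PECAM1, VWF, DCN, COL1A2 and COL3A1. CD14 and CD79A had log2 fold changes of -0.28 and 0.14 and did not pass (limma adjusted p = 0.0995 and 0.614), and COL1A1 rose 1.68-fold (limma adjusted p = 0.000574).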

How the data were processed

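The first table deposited by the authors holds, in 8 columns, each probe's non-normalized intensity with its detection p-value per the file headers, exported from BeadStudio per the submitters' processing notes (version and background setting not given in the sources used here). The second holds the authors' processed intensity of 8 samples on a linear scale; its columns share 1 distribution, and the notes name limma. A column was traced to the sample that held all 48798 shared probes in almost exactly its rank order; 7 of 8 could be traced, and the remaining TRPM2-AS siRNA column, with rank correlations of 0.809 to 0.832, was left out.

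Signals were corrected with limma 3.58.1 in R 4.3.3 (normexp with background from detection p-values, offset 16), quantile normalized, put on the log2 scale and compared with lmFit and eBayes (two-sided) over all 14400 probes detected (p under 0.01) on at least 3 of 7 arrays. Quantile normalization hides a shift of all genes together. Probe names came from the platform annotation; 28094 probes had 1 gene name. Every probe of each described gene is given. From other lists the text names up to 4 genes with the smallest p, and genes seen on all arrays of 1 group and none of the other. The gene set and lists were chosen with earlier results of these data known. The number of arrays limits the precision. The fit was run on simulated data with few changed probes and independent noise. That setting differs from these arrays, so it does not test whether their p-values are too small. Alternatives covered background, normalization, filter, variance model, weights, probe per gene, the authors' values, replicate block and arrays left out.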

Additional observations from a re-analysis of the deposited data

Results flagged for a closer look

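In the control arrays, the IRF7 probe ILMN_2349061 had 1 array apart: replicate 3 read 7.49 against 7.18 to 7.20 in the other 3, a gap of 0.930 of the group's range, and of 0.933 in the authors' processed values. In those processed values of TRPM2-AS siRNA, TYK2 had replicate 1 below the others (gap 0.963 of the range) and IRF3 had replicate 4 below them (0.846). About 1 in 20 such groups is marked by chance.

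The untraced column, normalised together with the 7 others, read above the highest control for 6 of the 10 tested probes. It stood at 9.37 for IRF9, where controls reached 8.97 and TRPM2-AS siRNA arrays began at 10.08, and at 8.95 for the IFNAR2 probe ILMN_1765146, within the TRPM2-AS siRNA range of 8.90 to 9.41. It stood at 8.60 for IFNAR1, above the controls where the treated arrays were lower, and at 7.93 for the IFNAR2 probe ILMN_1791057, which did not pass. It stood at 8.62 for IRF1 and 9.39 for IRF3. For both IRF7 probes it lay within the control range, at 7.48 and 9.04.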

How the results depend on the processing

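The direction of the 10 tested probes of receptor, kinase and IRF genes did not reverse in a call under any of the 207 combinations of probe and alternative; in 197 the call was kept, in 2 it was lost and in 8 it was gained. Leaving out each array in turn gave 5 to 6 changed probes among these and 7232 to 7746 among all. With all 8 columns under their names, which adds the untraced column, 3 of these probes changed in place of 5 and 3724 of all probes in place of 8010; IFNAR1 (log2 fold change -0.38, limma adjusted p = 0.257) and the IRF7 probe ILMN_1798181 (0.65, limma adjusted p = 0.0584) lost their calls, and 4 of the negative regulators fell in place of 7. Over all alternatives, 17 to 22 interferon-stimulated genes and 7 to 10 of the upstream genes rose while 1 to 3 upstream genes fell, and 1 to 3 targets of IRF1 or interferon gamma rose and 0 to 2 fell. Calls were gained for IRF1 and IRF2 with array weights (0.65 and 0.57), for IRF2 with the replicate block (0.74, limma adjusted p = 0.00163), for both with the replicate block on the authors' processed values (0.38 and 0.22, limma adjusted p = 0.0218 and 0.0415), and with single arrays left out as given above; the cause was not tested. In the authors' values, deviations from the group means correlated at 0.36 and 0.21 between samples numbered 1 and 4 (at most 0.11 and 0.02 with another number) and at -0.07 and 0.06 between those numbered 2 and 3 (up to 0.15 and 0.10), so the numbers were not taken to pair the samples, and a batch shared by some pairs was not tested. The replicate block gave 6 changed probes here and 8079 among all, and on the authors' values 7 and 9109. Probes near background, such as IRF2, are limited by signal over background. The comparison of probe pairs and the use of these settings on the pathway lists were added after seeing the data.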
